A study of Homo sapiens with 8 samples.

Results

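The kidney lineage transcription factors PAX2, PAX8, LHX1, SIX2, WT1, EMX2, GATA3 and HNF4A were followed in 2 renal cell carcinoma (RCC) lines cultured with or without branched-chain amino acids (BCAAs). These 8 genes were taken by symbol from the Ensembl identifiers of both tables of the series. The table of 769-P cells held a row for 7 of them among 25431 genes, and the table of CAKI-1 cells held a row for 5 among 24190, out of 27776 genes with a row in either. EMX2 had a row in neither, and PAX2 and HNF4A had none for CAKI-1. A gene without a row is given no value here.

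769-P and CAKI-1 are established human RCC lines that the labels describe as clear cell carcinoma cells. Cells of each line were kept for 16 hours with or without BCAAs. The supplement held valine at 0.17 mM and both leucine and isoleucine at 0.38 mM. The base was an RPMI medium reconstituted without amino acids and given dialyzed serum, and the study's methods do not say whether the other amino acids were added back. Each line and medium gave 2 RNA-seq libraries, 8 in all, and no genetic change separates the groups of a line. No label says that the libraries of a condition came from separate cultures, so the p-values measure only the spread between these libraries. Each line stands for 1 tumour, and the same medium was used for both although 769-P is otherwise grown in complete RPMI and CAKI-1 in MEM.

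Paired-box factors PAX2 and PAX8 start the kidney lineage in the embryo, and LHX1 acts with them in the nephric duct and the renal vesicle. SIX2 keeps nephron progenitors undifferentiated, and WT1 is needed both in those progenitors and later in podocytes. EMX2 and GATA3 belong to the nephric duct and the ureteric bud that becomes the collecting duct, while HNF4A drives the mature proximal tubule. PAX8 persists in adult tubules and in most renal carcinomas, for which pathologists use it as a lineage marker.

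Between 30979773 and 64256834 reads per library lay on listed genes. In 769-P the libraries with BCAA were the deeper ones, with 55829324 and 64256834 reads against 39062721 and 40130258 without, so that depth and condition cannot be told apart there. Normalized values (reads divided by 1 size factor per library) and RPM (reads per 1000000 listed reads) remove depth as a scale but not its effect on the precision of low counts. Of 10 identity genes of renal carcinoma and epithelium, 7 had more than 3 reads in every 769-P library and 9 in every CAKI-1 library. VIM, KRT8, KRT18 and CDH2 were abundant in both lines. Others were low, as in 769-P EPCAM had between 11 and 25 reads, NDUFA4L2 at most 3 and CDH1 no row. In CAKI-1 CDH1 had between 15 and 19 reads. CA9, a hypoxia gene typical of clear cell carcinoma, had no row in either table. Of 8 identity genes tested in 769-P, 1 was called higher with BCAA (12.5%) and 3 lower (37.5%). Of 9 tested in CAKI-1, 0 were called higher and 5 lower (55.6%). Shares of all genes tested were 20.3% higher and 18.2% lower in 769-P, and 10.8% and 9.05% in CAKI-1. Of 10 blood, endothelial and fibroblast markers, 2 in 769-P and 3 in CAKI-1 had more than 3 reads in every library. The fibroblast collagen COL1A1 took between 90401 and 149247 reads in CAKI-1 and between 170 and 235 in 769-P, and the leukocyte gene PTPRC had at most 6 reads in 769-P and no row for CAKI-1. Of the 5 markers tested in each line, 1 was called higher with BCAA in 769-P and 2 in CAKI-1, and none was called lower. PDGFRB, a receptor of stromal cells, had 200 and 178 reads with BCAA and 27 and 40 without in 769-P (1.88 on the log2 scale, limma adjusted p = 8.4e-05). In CAKI-1 it was called higher by 0.58 (limma adjusted p = 0.0064) and COL1A1 by 0.31 (limma adjusted p = 0.043), a call that was lost under 11 of 14 alternatives. The part of these markers in the results below was not tested.

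The promoter windows of PAX8, PAX2, WT1 and SIX2 are shown because these 4 factors carried calls in opposite directions in 769-P with the most reads behind them. Each window runs from 250 bases before to 50 bases after the RefSeq start nearest to the annotated 5′ end (RefSeq, GRCh38.p14), read 5′ to 3′ on the gene's own strand. Capitals mark a GC box, the letters GGGCGG or, on the other strand, CCGCCC. PAX8 is at chr2:113278872-113279171 on the minus strand, PAX2 at chr10:100735146-100735445 on the plus strand, WT1 at chr11:32435490-32435789 on the minus strand and SIX2 at chr2:45009403-45009702 on the minus strand.
PAX8: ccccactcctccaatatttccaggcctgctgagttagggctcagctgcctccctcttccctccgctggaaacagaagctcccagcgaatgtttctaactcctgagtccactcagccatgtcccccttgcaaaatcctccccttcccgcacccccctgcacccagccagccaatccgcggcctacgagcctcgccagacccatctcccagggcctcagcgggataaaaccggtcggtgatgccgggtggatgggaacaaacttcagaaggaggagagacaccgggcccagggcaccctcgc
PAX2: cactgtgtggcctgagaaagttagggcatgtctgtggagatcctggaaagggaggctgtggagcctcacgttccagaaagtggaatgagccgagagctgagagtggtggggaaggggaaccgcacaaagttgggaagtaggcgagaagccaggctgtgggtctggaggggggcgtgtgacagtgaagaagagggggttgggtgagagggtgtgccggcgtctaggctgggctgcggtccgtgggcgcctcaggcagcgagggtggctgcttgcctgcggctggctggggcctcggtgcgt
WT1: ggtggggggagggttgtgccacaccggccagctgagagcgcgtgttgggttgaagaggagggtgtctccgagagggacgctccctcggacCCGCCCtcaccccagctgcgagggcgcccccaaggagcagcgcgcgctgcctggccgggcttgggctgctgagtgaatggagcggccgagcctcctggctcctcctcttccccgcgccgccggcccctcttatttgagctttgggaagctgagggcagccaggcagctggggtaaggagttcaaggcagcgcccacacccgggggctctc
SIX2: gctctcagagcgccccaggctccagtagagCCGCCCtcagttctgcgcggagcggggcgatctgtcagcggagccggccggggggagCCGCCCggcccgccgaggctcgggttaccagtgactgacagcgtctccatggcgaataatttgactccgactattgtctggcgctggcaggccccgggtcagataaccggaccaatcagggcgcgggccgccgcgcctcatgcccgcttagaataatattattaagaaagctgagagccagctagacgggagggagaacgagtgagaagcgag

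A GC box was found in 45.0% of 35116 RefSeq promoter windows of this length. The WT1 window held 1, the SIX2 window held 2, and the PAX8 and PAX2 windows held none. The E-box CAGGTG that SNAI factors can bind (20.6% of all windows) and the C/EBP-ATF letters TGATGNAA (3.62%), the other motifs searched on both strands, were in none of the 4. The windows were rich in G and C, from 62.0% in PAX8 to 70.0% in WT1, against a median of 58.7% over all windows. SIX2 held 29 CpG dinucleotides and WT1 held 21, while PAX2 held 14 and PAX8 held 13, and the median window held 14.

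Transcription of PAX8 dominated the group in both lines, while the other factors divided the lines. In 769-P cells PAX2 and WT1 were expressed beside PAX8 at more than 700 reads in each library. In CAKI-1 cells GATA3 was the factor with the most reads after PAX8, and PAX2 had no row. The mean abundance of WT1 was 24.8 RPM in 769-P and 0.491 in CAKI-1, a ratio of 50.4. GATA3 stood the other way, with 4.55 RPM in CAKI-1 and 0.179 in 769-P, a ratio of 25.5. The tables were normalized separately, so these levels across lines are descriptions without a test.

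**Figure D1:**
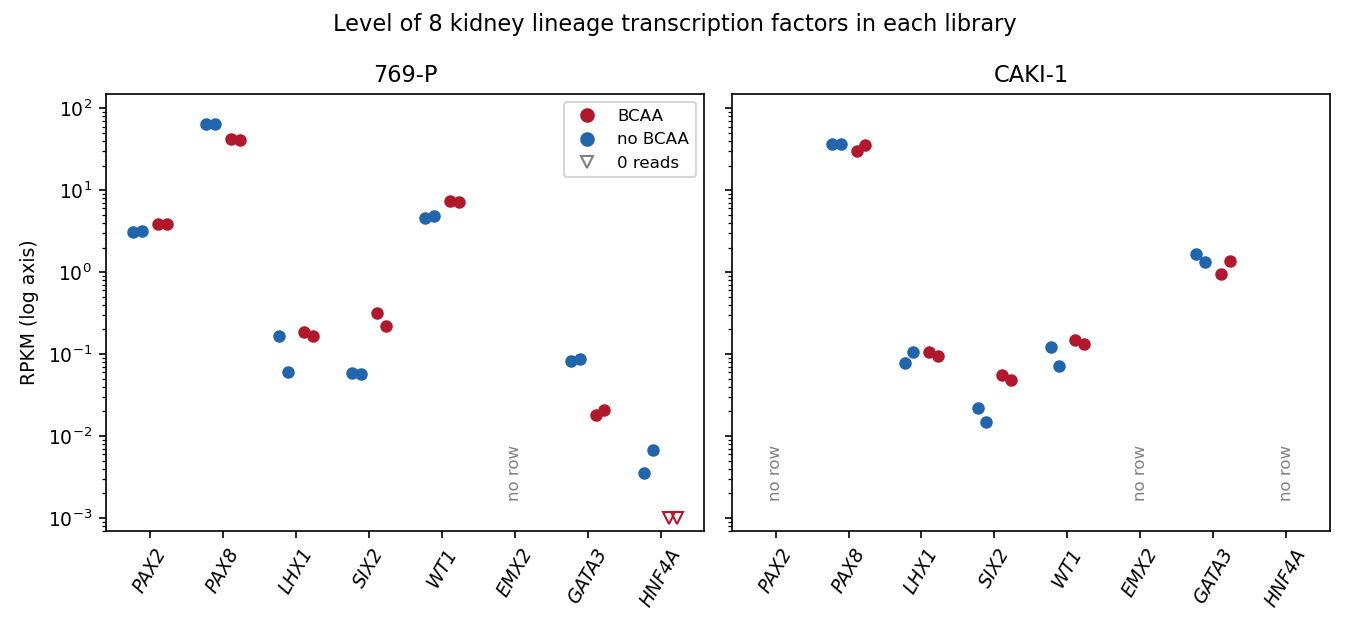
RPKM (log axis) of each factor in each of the 4 libraries per line, with 1 point per library. PAX8 is the highest point in both panels, WT1 and PAX2 follow in 769-P, GATA3 follows in CAKI-1, and factors without a row carry the words no row.

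Per length of exon, PAX8 had a mean of 53.1 RPKM (RPM per kb) in 769-P (41.2 to 64.7 over 4 libraries) and 34.6 in CAKI-1 (29.9 to 36.4). That placed its level above 96.3% of the genes listed for 769-P and 94.1% of those listed for CAKI-1. The order of levels in 769-P was PAX8, WT1 at 6.02, PAX2 at 3.51, SIX2 at 0.163, LHX1 at 0.145 and GATA3 at 0.0520 RPKM. The libraries of PAX8, WT1, PAX2 and SIX2 did not overlap between neighbours in that order, whereas SIX2 overlapped with LHX1 and LHX1 with GATA3.

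In CAKI-1 the order was PAX8, GATA3 at 1.32, WT1 at 0.119, LHX1 at 0.0967 and SIX2 at 0.0352 RPKM. WT1 and LHX1 overlapped across libraries there and the other neighbours did not. Lengths are those of all annotated exons joined, which overstates the length of a single transcript.

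PAX8 (ENSG00000125618, chr2:113215997-113278950 on the minus strand, GRCh38) was lower with BCAA in 769-P. It had 20096 and 17012 reads with BCAA and 18710 and 19029 without, from libraries of unequal depth. Its normalized value was 15237 and 14547 with BCAA and 23240 and 23271 without, or 14892 ± 488 against 23255 ± 21.8 (mean ± SD, n = 2). Both BCAA libraries lay below both libraries without. The log2 fold change was -0.64 (SE 0.0406, 95% interval -0.73 to -0.55, limma adjusted p = 1.3e-07), a fold of 0.640.

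In CAKI-1 cells PAX8 had 8943 and 12483 reads with BCAA and 11210 and 8345 without. The normalized values were 8700 and 10387 against 10654 and 10739, so the BCAA libraries were again the lower ones, by less. The log2 fold change of -0.17 did not pass the test (95% interval -0.34 to -0.0037, limma adjusted p = 0.15, unadjusted p = 0.0459). The BCAA effect on PAX8 differed between lines by -0.47 (769-P minus CAKI-1, SE 0.0938, limma interaction adjusted p = 0.0026), where 21.1% of 19406 genes tested in both lines differed in either direction and 10.1% in this one. That difference passed in each of 8 fits that left out 1 library, between -0.60 and -0.35.

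PAX2 (ENSG00000075891, chr10:100735603-100829941, plus strand) was higher with BCAA in 769-P, opposite to its paralog PAX8. It had 1537 and 1370 reads with BCAA and 751 and 805 without. Normalized values were 1168 ± 4.35 and 959 ± 36.5 (n = 2), without overlap. The log2 fold change was 0.29 (SE 0.0719, 95% interval 0.13 to 0.44, limma adjusted p = 0.0073).

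LHX1 (ENSG00000273706, chr17:36936785-36944612, plus strand) was detected at low level in both lines. Its reads with BCAA were 58 and 45 in 769-P, against 32 and 12 without. In CAKI-1 they were 21 and 22 with BCAA and 16 and 16 without. The libraries of the 2 media overlapped in both lines on the normalized scale. The log2 fold changes of 0.74 in 769-P (95% interval -0.26 to 1.74, limma adjusted p = 0.24) and 0.12 in CAKI-1 (-0.84 to 1.08, limma adjusted p = 0.89) leave a rise of 2-fold within the interval of either line.

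SIX2 (ENSG00000170577, chr2:45005161-45009430, minus strand), the progenitor factor, was present only in traces and rose most in fold among these factors in 769-P. It had 45 and 27 reads with BCAA and 5 and 5 without. Normalized values were 28.6 ± 7.80 and 6.16 ± 0.0679 (n = 2), without overlap. The log2 fold change was 2.02 (SE 0.509, 95% interval 0.91 to 3.14, limma adjusted p = 0.0073).

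In CAKI-1 SIX2 had 5 and 5 reads with BCAA and 2 and 1 without, the latter at the floor of 3 reads. The ratio of depth-corrected reads was 2.73, with an exact 95% counting interval from 0.704 to 15.5. The difference was therefore not detectable at this depth (limma adjusted p = 0.37).

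WT1 (ENSG00000184937, chr11:32387775-32435630, minus strand) was higher with BCAA in 769-P. It had 1960 and 1639 reads with BCAA and 741 and 811 without. Normalized values were 1444 ± 59.8 and 956 ± 50.5 (n = 2), without overlap. The log2 fold change was 0.59 (SE 0.0734, 95% interval 0.43 to 0.76, limma adjusted p = 3.8e-05), a fold of 1.51.

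In CAKI-1 WT1 had only 25 and 26 reads with BCAA and 21 and 9 without. Both BCAA libraries lay above both others, and the estimate of 0.56 was close to that in 769-P but with a wide interval (-0.44 to 1.56, limma adjusted p = 0.46). The difference between lines was 0.03 (95% interval -0.65 to 0.72, limma adjusted p = 0.96), which leaves differences of over 0.6 on the log2 scale either way.

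GATA3 (ENSG00000107485, chr10:8045378-8075203, plus strand), the collecting duct factor, was nearly silent in 769-P. It had 4 and 4 reads with BCAA and 11 and 12 without, in the shallower libraries. Normalized values were 3.23 ± 0.274 and 14.2 ± 0.715 (n = 2), and the log2 fold change was -1.84 (95% interval -3.18 to -0.51, limma adjusted p = 0.032). The call was lost with DESeq2 and with reads thinned to equal depth.

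In CAKI-1, where GATA3 was the second factor by reads, it had 131 and 220 reads with BCAA and 237 and 142 without. The normalized values overlapped between media (155 ± 39.3 and 204 ± 30.1, n = 2). The log2 fold change of -0.41 did not pass (95% interval -0.85 to 0.035, limma adjusted p = 0.19), and neither did the difference between lines (-1.44, limma adjusted p = 0.052).

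HNF4A (ENSG00000101076, chr20:44355700-44434596, plus strand), the proximal tubule factor, stood at the floor in 769-P. It had 0 and 0 reads with BCAA and 1 and 2 without, too few to test. Its close paralog HNF4G was expressed, with between 1570 and 2567 reads per library in 769-P and between 450 and 664 in CAKI-1.

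In 769-P 3 of the 6 factors tested were called higher and 2 were called lower with BCAA, with LHX1 not called. Among all 22391 genes tested there, 38.4% were called, 20.3% higher and 18.2% lower. The libraries of the 2 media did not overlap for 5 of the 6, with BCAA above for 3 and below for 2, while 33.6% of all genes had BCAA above and 33.5% had it below. A set of 6 genes is too small for its shares to be read against these.

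In CAKI-1 none of the 5 factors tested was called by limma, edgeR or DESeq2, where 19.9% of 21347 genes were called by limma, 10.8% higher and 9.05% lower. PAX8 was the 1 with an unadjusted p under 0.05. BCAA lay above for WT1 and SIX2 (28.9% of all genes), below for PAX8 (28.8%), and overlapped for LHX1 and GATA3. With 1 library of CAKI-1 left out, the effect on PAX8 ranged from -0.30 (without the second BCAA library) to -0.042. That on WT1 ranged from 0.19 to 0.93 (without the first library lacking BCAA). Both thus depended on which library was left out.

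Leaving out any 1 of the 4 libraries of 769-P left the fit 1 residual degree of freedom, and between 8.18% and 13.3% of all genes were then called. The PAX8 call held in 4 of 4 such fits (highest adjusted p = 0.0467). The WT1 call was lost in 3 of 4, and those of PAX2, SIX2 and GATA3 in 4 of 4, while no direction changed.

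**Figure D2:**
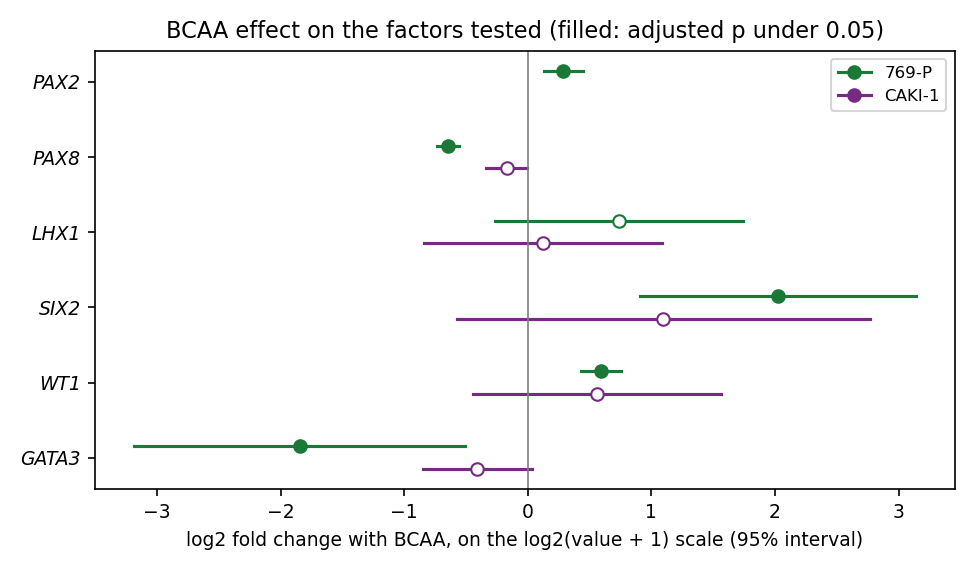
Log2 fold change with BCAA (points) and 95% interval (bars) of the factors tested, from the limma fit of each line, with filled points for adjusted p under 0.05. In 769-P PAX8 and GATA3 lie to the left of 0 and PAX2, SIX2 and WT1 to the right, and no CAKI-1 point is filled.

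The opposite movements could also be read within each library, where the size factor cancels. In 769-P there were 7.65 and 8.05 PAX2 reads per 100 PAX8 reads with BCAA and 4.01 and 4.23 without. WT1 gave 9.75 and 9.63 per 100 PAX8 reads with BCAA and 3.96 and 4.26 without. Both factors thus made up a larger share relative to PAX8 in each BCAA library than in each library without.

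SIX2 gave 0.224 and 0.159 reads per 100 PAX8 reads with BCAA and 0.0267 and 0.0263 without in 769-P. In CAKI-1 the WT1 values were 0.280 and 0.208 with BCAA and 0.187 and 0.108 without. In bulk RNA a lower level per cell and fewer cells expressing a gene cannot be told apart.

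**Figure D3:**
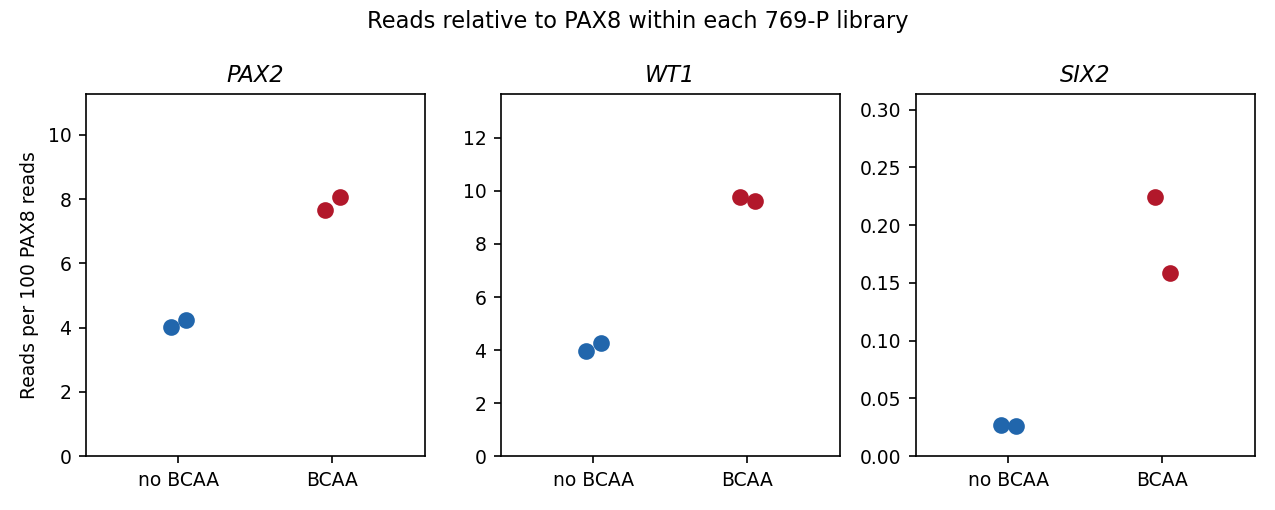
Reads of PAX2, WT1 and SIX2 per 100 PAX8 reads in each 769-P library, 1 point per library, with each axis starting at 0. Both BCAA points lie above both points without BCAA in each panel.

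Exons of PAX8, LHX1, WT1 and EMX2 overlap a gene on the opposite strand, PAX8-AS1 over 685 bases (9.26% of the PAX8 exons), AC243773.1 over 367 of LHX1, WT1-AS over 113 of WT1 and EMX2OS over 255 of EMX2. Whether reads were counted by strand is not given in the sources used here, so reads in those bases could not be assigned to a strand. PAX8-AS1 had 221, 205, 206 and 165 reads in 769-P (BCAA libraries first) and 101, 98, 108 and 109 in CAKI-1. WT1-AS, whose annotated start at position 32435518 lies inside the WT1 window shown, had 84, 71, 62 and 49 reads in 769-P and 4, 4, 1 and 1 in CAKI-1. LHX1-DT, transcribed away from LHX1, had 41 and 52 reads with BCAA and 13 and 16 without in 769-P, and 11, 13, 18 and 12 in CAKI-1. None of these 3 noncoding neighbours was called by limma in either line (2 in 769-P and 0 in CAKI-1 at an unadjusted p under 0.05), with log2 fold changes in 769-P of -0.40, -0.13 and 1.02 (limma adjusted p = 0.072, 0.75 and 0.066). With edgeR PAX8-AS1 (adjusted p = 0.0425) and LHX1-DT (adjusted p = 0.0444) passed in 769-P, and with DESeq2 none did. When limma kept only genes whose mean value reached 10, both passed there as well (adjusted p = 0.0490 and 0.0428).

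PAX8, as the factor with the most reads, was also compared with other genes by its pattern. Over the 8 libraries, with log2 values centred within each line, the genes most like PAX8 among 10880 whose mean values reached 100 in both lines were NPC1 (Pearson r = 0.997), RNPEPL1 (0.995) and ITPKA (0.995). These points share library, depth and scaling, and the values describe only these 8 libraries. They were not centred within a medium, so the correlations include the difference between media and do not show likeness apart from it.

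Beyond these factors, the other regulators of kidney development were read from 4 lists with 60 genes. In 769-P 46 were tested, of which 19 were higher (41.3%) and 8 lower (17.4%) with BCAA, with a median log2 fold change of 0.34 against -0.02 over all genes tested. In CAKI-1 40 were tested, of which 4 were higher (10%) and 3 lower (7.5%), with a median of 0.08 against -0.01. Shares of all genes tested were 20.3% higher and 18.2% lower in 769-P, and 10.8% and 9.05% in CAKI-1. Leaving out any 1 library of 769-P gave 5 to 13 higher and 2 to 5 lower calls.

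Early kidney and nephron progenitor regulators were called in 1 direction only in 769-P, with 7 of 12 tested called higher, none called lower and 11 of 12 above 0. Of all genes tested there, 20.3% were called higher and 18.2% lower. Among the 7 were TBX2, MECOM, SIX4, SOX4, FOXC2 and SALL1. With 1 library of 769-P left out, the calls of TBX2, FOXC2 and SALL1 were lost in 4 of 4 fits within the line, that of SIX4 in 3, and those of MECOM and SOX4 in 2 each. MECOM, a zinc finger factor of nephron patterning, had 2766 and 2277 reads with BCAA and 620 and 763 without (1.25, limma adjusted p = 3.9e-07). SIX4, a relative of SIX2, had 357 and 327 reads against 92 and 123 (1.06, limma adjusted p = 0.00031).

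In CAKI-1 14 of this list were tested. Of these, 2 were called higher, FOXC2 (0.46) among them, and SALL1 was called lower. The FOXC2 call was lost under 5 of 14 alternatives. SALL1, a zinc finger factor that acts beside SIX2 in nephron progenitors, had 808 and 650 reads with BCAA and 360 and 403 without in 769-P (0.31, limma adjusted p = 0.029). In CAKI-1 it had 489 and 775 with BCAA and 830 and 598 without (-0.49, limma adjusted p = 0.02). Its BCAA effect differed between lines (0.80, limma interaction adjusted p = 0.006), which held with any 1 of the 8 libraries left out, while its call in 769-P was lost with any 1 library of that line left out. Its call in CAKI-1 was lost in 3 of 4 fits that left out a library and took the spread of both lines (highest limma adjusted p = 0.138). The signed difference between lines (769-P minus CAKI-1) was called higher for 6 of 10 tested in both, SALL1, SIX4, MECOM, TBX2 and SOX4 among them, where 10.9% of all genes were.

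Of the ureteric bud and distal nephron regulators, 4 of 13 tested were higher and 3 lower in 769-P. These are 30.8% and 23.1%, beside 20.3% and 18.2% of all genes tested. TFCP2L1, a collecting duct factor, had 180 and 141 reads with BCAA and 19 and 22 without (2.30, limma adjusted p = 2.8e-05), and had no row for CAKI-1. GATA2, IRX3 and SIM1 were also called higher, and ETV5, POU3F3 and ELF3 lower. With 1 library of 769-P left out, the calls of GATA2 and IRX3 were lost in 4 of 4 fits. Those of ETV5 and POU3F3 were lost in 3, those of SIM1 and TFCP2L1 in 2 and that of ELF3 in 0. The GATA2 call was also lost under 5 of 13 alternatives. ELF3, an epithelial ETS factor, moved in opposite directions, with 1320 and 1243 reads with BCAA and 1435 and 1535 without in 769-P (-0.83, limma adjusted p = 1.3e-06). In CAKI-1 ELF3 had 5456 and 6714 with BCAA and 4526 and 3150 without (0.38, limma adjusted p = 0.0012).

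Of the proximal tubule regulators, 6 of 12 tested were higher (50%) and 3 lower (25%) in 769-P, beside 20.3% and 18.2% of all genes tested. NR1H4, PPARGC1A, ESRRG, MAF and FOXA2 were among those called higher, and PPARA and ESRRA among those called lower. With 1 library of 769-P left out, the calls of NR1H4, ESRRG, MAF and PPARA were lost in 4 of 4 fits. Those of FOXA2 and ESRRA were lost in 2, and that of PPARGC1A in 0. ESRRG had only 18 and 16 reads with BCAA and 1 and 3 without. The MAF call was also lost under 5 of 14 alternatives. NR1H4, a nuclear receptor for bile acids, had 153 and 193 reads with BCAA and 55 and 38 without (1.28, limma adjusted p = 0.0022). In CAKI-1 HNF4G (-0.36, limma adjusted p = 0.032) and ESRRA (-0.29, limma adjusted p = 0.0078) were called lower and none of 10 was called higher. The HNF4G call was lost under 5 of 14 alternatives and that of ESRRA under 1.

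Podocyte and stroma regulators were split, with 2 of 9 tested higher and 2 lower in 769-P. Each is 22.2% of the list, near the 20.3% higher and 18.2% lower of all genes tested. NR2F1, an orphan nuclear receptor, had 579 and 505 reads with BCAA and 69 and 75 without (2.28, limma adjusted p = 1.6e-07). NR2F2 was called higher in both lines (0.33 and 0.25), a call lost under 2 of 14 alternatives in 769-P and 5 of 14 in CAKI-1. LMX1B, a podocyte homeodomain factor, fell by 1.02 on the log2 scale in 769-P (66 and 64 reads with BCAA, 93 and 81 without), and ZHX2 fell by 0.84. With 1 library of 769-P left out, the calls of NR2F2 and LMX1B were lost in 4 of 4 fits and those of NR2F1 and ZHX2 in 0.

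**Figure D4:**
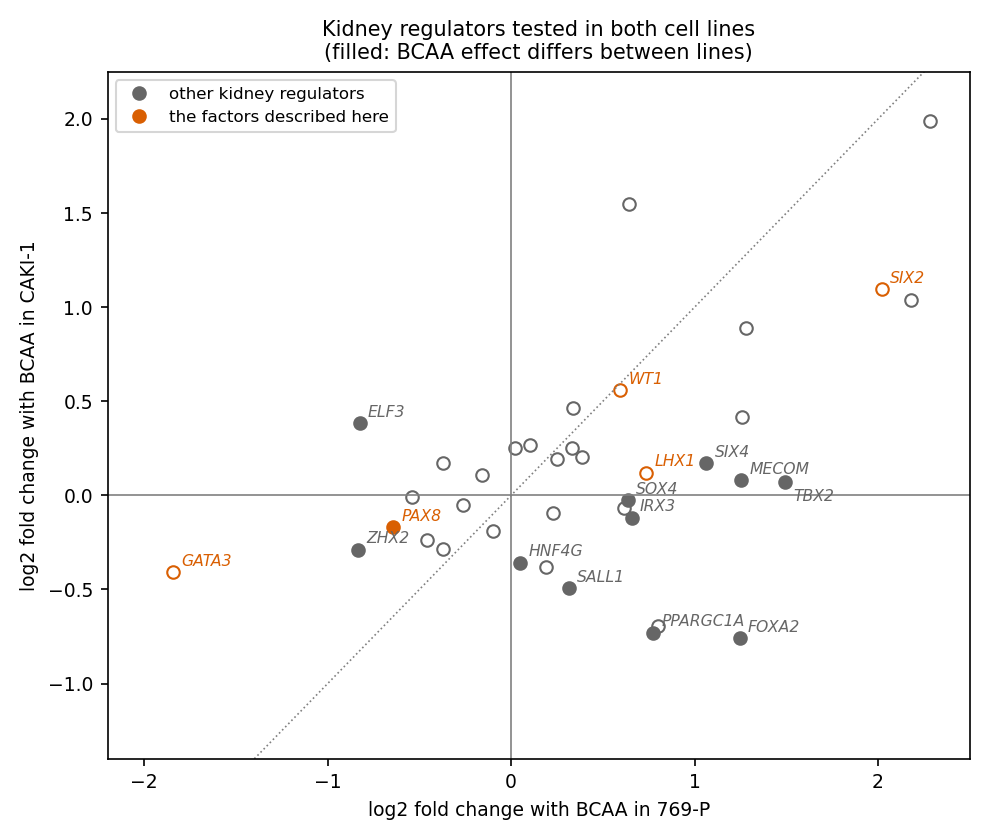
Log2 fold change with BCAA in 769-P (horizontal axis) and CAKI-1 (vertical axis) of the kidney regulators tested in both lines, with filled points where the interaction passed and a dotted line of equal effect. PAX8 is filled on the left, MECOM, TBX2 and SIX4 are filled on the right near 0 in CAKI-1, and ELF3 is filled at the upper left.

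Among 21 paralogs of these factors, 10 were tested in 769-P, of which 3 were higher (30%) and none lower. Of all genes tested there, the shares were 20.3% and 18.2%. PAX5, best known as a B cell factor, had 74 and 96 reads with BCAA and 2 and 3 without. The ratio of depth-corrected reads was 22.2, with an exact 95% counting interval from 9.32 to 69.2. LHX2 had 58 and 70 reads against 12 and 14 (1.62, limma adjusted p = 0.0047), and PAX6 rose by 0.52. With 1 library of 769-P left out, the calls of LHX2 and PAX6 were lost in 4 of 4 fits and that of PAX5 in 3. In CAKI-1 GATA6 was the 1 of 9 called, with 684 and 872 reads with BCAA and 1254 and 775 without (-0.65, limma adjusted p = 0.001).

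Genes of differentiated nephron segments showed no common direction. In 769-P 39 of 59 were tested, of which 12 were higher (30.8%) and 8 lower (20.5%), with a median of 0.23. In CAKI-1 33 were tested, of which 3 were higher (9.09%) and 6 lower (18.2%), with a median of -0.03. Shares of all genes tested were 20.3% and 18.2% in 769-P, and 10.8% and 9.05% in CAKI-1. Leaving out any 1 library of 769-P gave 3 to 7 higher and 3 to 5 lower.

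Proximal tubule genes gave 8 higher (40%) and 3 lower (15%) of 20 in 769-P, beside 20.3% and 18.2% of all genes tested. In CAKI-1 they gave 3 higher (20%) and 3 lower (20%) of 15, beside 10.8% and 9.05%. CDH6, a cadherin of the early proximal tubule and of renal carcinoma, was called higher in both, with 22060 and 19223 reads with BCAA and 5573 and 6119 without in 769-P (1.20, limma adjusted p = 2.4e-09). In CAKI-1 CDH6 had 2565 and 2519 reads against 1300 and 884 (0.95, limma adjusted p = 3.8e-05). PDZK1, a scaffold of the brush border, fell by 0.33 in 769-P (a call lost with any 1 library of that line left out) and rose by 1.26 in CAKI-1, where it had 212 and 298 reads against 130 and 55. The injury marker HAVCR1 rose by 0.33 in CAKI-1. The myo-inositol oxygenase MIOX (38 and 30 reads with BCAA, 65 and 54 without) and the peptidase MME (2 and 10 against 24 and 17) were called lower in CAKI-1, with log2 fold changes of -1.08 and -2.16. The value of MME was -1.32 without the first BCAA library and -2.99 without the second, and both calls were lost with quantile normalization (limma adjusted p = 0.0785 for MIOX and 0.111 for MME).

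Of the collecting duct genes, 3 of 9 were higher and 1 lower in 769-P, beside 20.3% and 18.2% of all genes tested. In CAKI-1 2 of 8 were lower, beside 9.05% of all genes tested. KRT7, a keratin of distal and collecting duct epithelium, was lower in both lines. It had 861 and 787 reads with BCAA and 1956 and 1991 without in 769-P (-1.87, limma adjusted p = 1.0e-09), and 88 and 127 against 243 and 188 in CAKI-1 (-1.30, limma adjusted p = 0.00047). Loop and distal tubule genes gave 1 higher and 1 lower of 4 in 769-P and none of 4 in CAKI-1 (none at an unadjusted p under 0.05).

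Of the podocyte genes, none of 6 was higher and 3 were lower in 769-P, where WT1 itself was higher. Of all genes tested there, 20.3% were higher and 18.2% lower. The 3 called lower were VEGFA, SYNPO and CD2AP, the first a growth factor that many cells make under stress or low oxygen. VEGFA had 3457 and 2962 reads with BCAA and 19540 and 19743 without (-3.23, limma adjusted p = 2.5e-12). In CAKI-1 it had 1406 and 2257 against 2135 and 1754 (-0.42, limma adjusted p = 0.033). That call was lost under 6 of 14 alternatives, and the value ranged from -0.65 to -0.19 with a library of CAKI-1 left out. SYNPO, an actin-binding podocyte protein, fell by 0.92 on the log2 scale in 769-P. The defining slit diaphragm gene NPHS1 was at or near 0, with at most 2 reads in any library of either line.

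**Figure D5:**
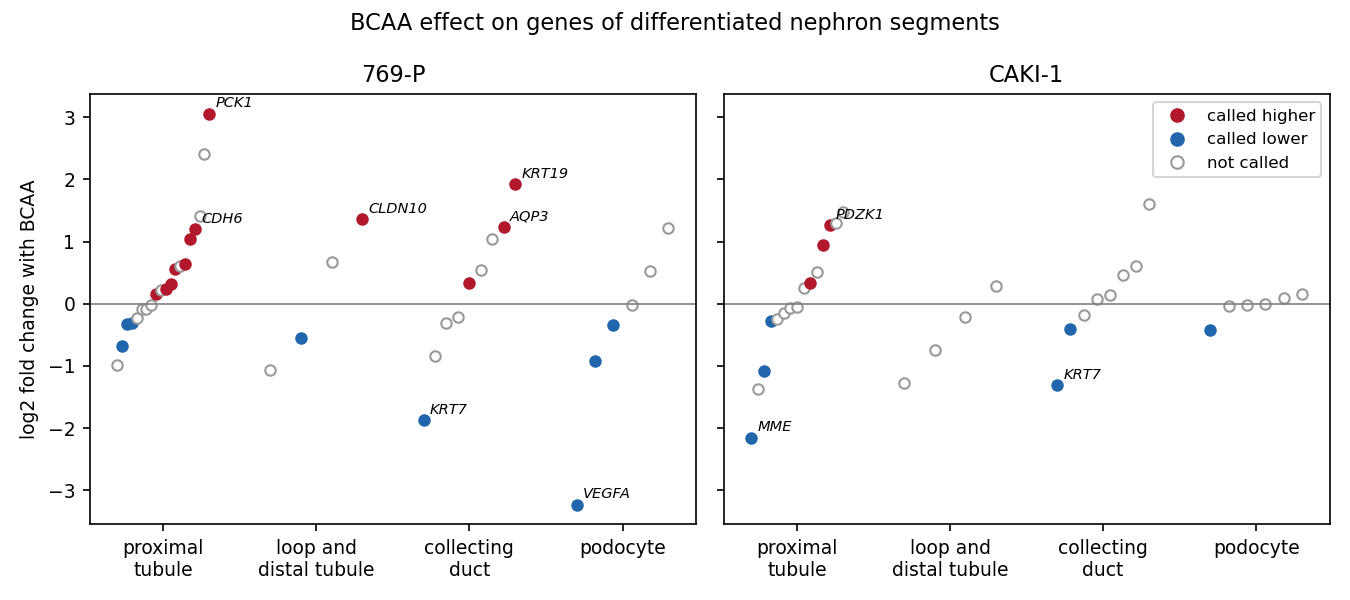
Log2 fold change with BCAA of the segment genes tested, by list and line, 1 point per gene ordered by value, red for called higher, blue for called lower and open for not called. VEGFA and KRT7 are the lowest called points in 769-P and MME and KRT7 in CAKI-1, and the PCK1 point in 769-P is a fitted value against 0 reads without BCAA.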

How the data were processed

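RNA-seq of 769-P and CAKI-1 cells with or without BCAAs was read from 1 table per line, with 2 libraries in each of 4 groups taken from the labels. The authors deposited a signal per gene, which is counted reads divided by a median-of-ratios size factor per library (0.777 to 1.32), each line apart. All values (100%) were whole multiples of 1 read within a tolerance of 0.001. The submitters' processing notes name Trim Galore, TopHat2 2.1.0, SAMtools 1.3.1, HTSeq 0.6.0, DESeq2 and hg38. The annotation release is not given in the sources used here. Symbols came from GENCODE 29 (25032 of 25431 and 23881 of 24190 identifiers), and 7 of the 8 factors had a RefSeq promoter entry.

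Genes whose mean value in a line reached 1 were tested with limma 3.58.1 (lmFit and eBayes with trend, R 4.3.3) on log2(value + 1) within each line. Such fold changes understate the change of low genes. Benjamini-Hochberg adjusted p-values were called at 0.05, and the difference between lines was the interaction over 8 libraries. The test was tried on simulated data whose changes were put only into genes with many reads in both lines. That trial says nothing of calls on genes with few reads, such as SIX2 and GATA3 in 769-P. Reads at 3 or fewer in every library were taken as the floor, and intervals on reads cover counting error only. Replicates differed by more than sampling noise (chi-square per degree of freedom 2.76 to 9.22).

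The factors and gene lists were chosen with earlier results of these data known. Named were the 8 factors, their noncoding neighbours, and the 6 largest rises and falls per line among called, non-overlapping list genes with a mean of at least 10, while further list genes were named after their values were seen. Some list genes enter the counts but are not reported here singly. Alternatives changed the pseudocount (0.5, 5), the filter, the scaling, the threshold (0.01, 2-fold), the block, the tool (edgeR 4.0.16, DESeq2 1.42.0), the depth (thinned to 30979773 reads) and the libraries. Leaving out a library with the spread of both lines was added after seeing the data.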

Additional observations from a re-analysis of the deposited data

Results flagged for a closer look

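The BCAA effect differed between the lines by the limma interaction test for 25 of the genes named above. Values are the log2 effect in 769-P minus that in CAKI-1. Of all 19406 genes tested in both lines, 21.1% differed in either direction. Many of the named genes were chosen for large called effects or after their values were seen. Their number therefore cannot be read against that share. Of the lineage factors only PAX8 differed among the 5 tested in both, by -0.47. Among the other regulators the difference was higher for FOXA2 (2.002), PPARGC1A (1.504), TBX2 (1.42), MECOM (1.17), SIX4 (0.89), SALL1 (0.80), IRX3 (0.77), SOX4 (0.66) and HNF4G (0.41). It was lower for ELF3 (-1.21) and ZHX2 (-0.55), and among the paralogs it was higher for GATA6 (0.46). In CAKI-1 FOXA2 had only 5 and 17 reads with BCAA and 14 and 13 without. PPARGC1A had 12 and 20 there against 21 and 22, and neither gene was called in CAKI-1. Among segment genes the difference was higher for MME (2.76) and MIOX (1.002), and lower for VEGFA (-2.81), PDZK1 (-1.59), SYNPO (-1.08), KRT7 (-0.57), HAVCR1 (-0.42) and CD2AP (-0.34). Among identity and other cell type markers it was higher for PDGFRB (1.299), VIM (0.61) and KRT18 (0.35) and lower for COL1A1 (-0.71). VIM and KRT18 were not called in 769-P and were called lower in CAKI-1. That call of KRT18 was lost under 8 of 14 alternatives. Adjusted p-values of the 25 differences (limma interaction) ran from 4.1e-08 for VEGFA to 0.033 for GATA6. With 1 of 8 libraries left out, 17 of the 25 calls held in 8 of 8 fits. Those of KRT7, GATA6, HNF4G and KRT18 were lost in 6, 5, 5 and 5 fits, that of FOXA2 in 4, that of MIOX in 2, and those of MME and SIX4 in 1 each. With 2 libraries per group, no group was tested for a single library that stands apart.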

How the results depend on the processing

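Of the 3 factors called higher in 769-P, 1 passed a fold of 2. Of the 2 called lower, 1 remained as a count with a mean value of at least 10 (GATA3 was then not tested), with DESeq2, with thinned reads, at an adjusted p of 0.01 and at a fold of 2. The factors whose effect differed between lines numbered 2 with a pseudocount of 0.5, 0 at a fold of 2 and 1 in the main fit. With a library left out, including fits with the spread of both lines, counts of factors ranged from 0 to 2 higher and 1 to 2 lower in 769-P and from 0 to 1 each way in CAKI-1. Counts for the other regulators ranged from 5 to 13 higher (12 and 11 with the spread of both lines without the first or the second BCAA library) and 2 to 5 lower in 769-P, and from 0 to 5 higher and 0 to 8 lower in CAKI-1. Counts for segment genes ranged from 3 to 7 higher and 3 to 5 lower in 769-P, and from 0 to 6 higher and 0 to 7 lower in CAKI-1. With a library left out and the spread of both lines, the 769-P calls of PAX8 and GATA3 held in 4 of 4 fits, that of WT1 was lost in 4 and that of SIX2 in 2, and PAX2 had no row for CAKI-1 to enter. Fits within CAKI-1 then called 0 of all genes and say nothing of stability. In them a lone library is assumed to vary like the other group. Quantile normalization gave 1 regulator higher, 1 lower and 1 segment gene lower in CAKI-1, where the main counts were 4, 3 and 6.

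Directions turned only for values that were not called. The difference between lines for WT1 was -0.095 with quantile normalization and -0.054 with thinned reads, that for NR2F1 was -0.15 with edgeR and -0.23 with DESeq2, and that for PAX8-AS1 was -0.076 with thinned reads. With a library left out, the difference ranged from -0.072 to 1.31 for LHX1, -0.12 to 0.71 for NR2F1, -0.21 to 0.24 for PAX8-AS1 and -0.33 to 0.40 for WT1. Effects ranged from -0.086 to 0.33 for LHX1 and -0.0014 to 0.14 for TBX2 in CAKI-1, and from -0.17 to 0.0044 for MIOX and -0.30 to 0.053 for WT1-AS in 769-P. In 769-P HNF4G was -0.022 and VIM 0.13 with quantile normalization, and left-out ranges were -0.049 to 0.14 for HNF4G and -0.014 to 0.17 for KRT18. In CAKI-1 SOX4 was 0.015 and CD2AP 0.037 with median centring and PAX6 0.00067 with quantile normalization. Left-out ranges there were -0.074 to 0.021 for SOX4, -0.065 to 0.057 for CD2AP, -0.20 to 0.11 for PAX6 and -0.21 to 0.023 for CDH2, with 0.0022 for CD2AP and 0.079 for PAX6 without the second library lacking BCAA. The difference for MAF was 0.12 with a pseudocount of 5 and that for KRT8 -0.0061 with thinned reads, with left-out ranges of -0.045 to 0.098 for KRT8 and -0.035 to 0.20 for NR2F2. The cause was not tested.

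The replicate numbers are shared by the media of a line, and deviations of same-numbered libraries correlated at -0.09 in 769-P and 0.06 in CAKI-1. With 2 libraries per medium, such values cannot exclude that same-numbered libraries were prepared together. With the replicate block the factors called remained 3 higher and 2 lower in 769-P and 0 in CAKI-1, and 1 differed between lines, while 4692 and 4233 of all genes were called in 769-P and 2133 and 1803 in CAKI-1. Depth limits SIX2, LHX1 and GATA3 in 769-P and SIX2, LHX1, WT1, FOXA2, PPARGC1A and MME in CAKI-1, which have few reads.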
